A study of Arabidopsis thaliana with 15 samples.

Results

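LHCB1 and LHCB2 encode the 2 major proteins of light-harvesting complex II (LHCII), and 8 of the 37361 genes in the count tables belong to them. They were taken by gene identifier. The 5 LHCB1 genes are CAB1 (AT1G29930), CAB2 (AT1G29920), CAB3 (AT1G29910), LHB1B1 (AT2G34430) and LHB1B2 (AT2G34420), and the 3 LHCB2 genes are LHCB2.1 (AT2G05100), LHCB2.2 (AT2G05070) and LHCB2.3 (AT3G27690). All 8 passed the filter on low counts, which left 21456 genes. The libraries come from Arabidopsis thaliana Col-0 seedlings, grown for 12 days in 16 h of light and 8 h of dark at 22 °C, with poly(A) RNA as the starting material in every group.

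Each of 5 groups holds 3 libraries. Mock mRNA is standard mRNA-seq of RNA carried through the depletion step without antibody. Mock SPAAC and mock CuAAC are NAD-seq of the same kind of mock-treated RNA, in which RNA with NAD+ as its cap is tagged with biotin by a copper-free (SPAAC) or a copper-catalysed (CuAAC) click reaction and collected on streptavidin. In m7G-depleted SPAAC and m7G-depleted CuAAC, RNA with the ordinary m7G cap was first removed with an anti-m7G antibody. No library made without the tagging enzyme was analysed here, so captured RNA can include RNA held without a tag. Whole seedlings were used, and fewer cells of a type and less RNA per cell cannot be told apart in such samples. Shoot markers (RBCS1A at 11455 ± 620 CPM in mock mRNA, SD, n = 3) and root markers (PYK10 at 1221 ± 29.2 CPM) were both present, and all 9 shoot, root, epidermis and vasculature markers were detected in every library.

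LHCII is the most abundant antenna complex of the chloroplast thylakoid. Its trimers of LHCB1, LHCB2 and LHCB3 proteins bind chlorophyll and carotenoids and pass light energy mainly to photosystem II. LHCB1 and LHCB2 are also the proteins phosphorylated by the kinase STN7 in state transitions, through which part of LHCII moves to photosystem I. The genes are nuclear, strongly expressed in green tissue and induced by light, and their proteins are made in the cytosol and imported into the chloroplast.

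The LHCB1 genes lie in 2 clusters, and several copies are close to identical. In TAIR10.1, CAB3 (chr1:10472280-10473502, minus strand), CAB2 (chr1:10474656-10475969, minus) and CAB1 (chr1:10477885-10479114, plus) span 6835 nt and have 1 exon each. LHB1B2 (chr2:14522524-14523568, minus) and LHB1B1 (chr2:14524607-14525918, plus) span 3395 nt. LHCB2.1 (chr2:1822990-1824480, minus), LHCB2.2 (chr2:1799234-1800472, minus) and LHCB2.3 (chr3:10255906-10257489, plus) stand further apart. Coding sequences were 96.1% identical between CAB1 and CAB2, 96.4% between CAB1 and CAB3, 91.4% between LHB1B1 and LHB1B2 and 96.6% between LHCB2.1 and LHCB2.2. LHCB2.3 was 85.5% identical to LHCB2.1 and 84.4% to LHCB2.2.

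The likeness can be read from a window of 60 coding bases, taken from RefSeq TAIR10.1. The window ends 300 bases before the end of each coding sequence. Capitals mark bases that differ from CAB1 in the LHCB1 genes and from LHCB2.1 in the LHCB2 genes.
CAB1: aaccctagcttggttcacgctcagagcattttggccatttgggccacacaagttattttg
CAB2: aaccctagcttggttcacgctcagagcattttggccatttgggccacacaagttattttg
CAB3: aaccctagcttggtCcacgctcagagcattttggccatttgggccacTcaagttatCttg
LHB1B1: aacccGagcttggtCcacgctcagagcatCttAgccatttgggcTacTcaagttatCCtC
LHB1B2: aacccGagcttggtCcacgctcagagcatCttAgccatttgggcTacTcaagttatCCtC
LHCB2.1: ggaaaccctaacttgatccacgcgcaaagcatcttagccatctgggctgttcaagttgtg
LHCB2.2: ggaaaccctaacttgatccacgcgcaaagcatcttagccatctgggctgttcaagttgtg
LHCB2.3: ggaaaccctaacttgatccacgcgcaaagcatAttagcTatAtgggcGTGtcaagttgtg
CAB1 and CAB2 are the same in all 60 bases, CAB3 differs from CAB1 at 3, and LHB1B1 and LHB1B2 differ from CAB1 at the same 9. LHCB2.1 and LHCB2.2 are the same, and LHCB2.3 differs at 6.

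How far reads can be told apart therefore depends on their length. The antisense gene AT2G08665 is left out of the shares that follow. Of all stretches of 50 nt in each gene's transcript, 10.6% (CAB3) to 28.2% (LHCB2.2) also occur exactly in the transcript of another gene. For 100 nt the range was 1.51% (CAB3) to 22.0% (LHCB2.3), and for 150 nt no stretch of an LHCB1 gene was shared. AT2G08665 itself holds, on the opposite strand, 100% of the stretches of LHB1B2 at each length, and 13.6% of those of LHB1B1 at 50 nt and 3.30% at 100 nt. Of LHCB2.3, 18.2% of the stretches of 150 nt lie in AT3G27700, which overlaps it by 595 nt on the opposite strand. The read length and the treatment of reads that fit several genes are not given in the sources used here, so the split between copies carries this uncertainty, and the sums over LHCB1, over LHCB2 and over all 8 genes are given beside the single genes.

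NAD+ is built into RNA as the first nucleotide and contains adenosine, which makes the first transcribed base of interest here. The annotated start of each gene is shown with 40 bases before it and 9 after, with the annotated first base in capitals (RefSeq TAIR10.1, read on the strand of the gene).
CAB1: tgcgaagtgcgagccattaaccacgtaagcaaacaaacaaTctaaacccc
CAB2: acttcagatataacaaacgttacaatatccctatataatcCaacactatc
CAB3: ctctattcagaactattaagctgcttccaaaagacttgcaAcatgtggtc
LHB1B1: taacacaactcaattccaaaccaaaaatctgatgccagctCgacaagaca
LHB1B2: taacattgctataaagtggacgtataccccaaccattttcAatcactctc
LHCB2.1: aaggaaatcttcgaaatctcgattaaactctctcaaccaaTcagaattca
LHCB2.2: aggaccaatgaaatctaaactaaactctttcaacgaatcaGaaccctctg
LHCB2.3: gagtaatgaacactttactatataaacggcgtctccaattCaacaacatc
For LHCB2.1 and LHCB2.3, which have 2 annotated transcripts each, 1 transcript was used, and for LHCB2.3 it starts at position 10255941, inside the gene's outer bounds. The annotated first base is A in CAB3 and LHB1B2 and another base in the other 6 genes. Of 27443 nuclear protein-coding genes, 45.6% have A there. The counts hold no information on where transcripts start, and an annotated end can lie away from the start used in seedlings.

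CAB1 had the highest level of the family in every group, in counts and per kb. Its level was 27987, 28840 and 34730 CPM in the 3 mock mRNA libraries, where CPM is the count scaled to the TMM-adjusted library size. It was 17099, 21036 and 19564 CPM in mock SPAAC and 18728, 22227 and 21906 CPM in mock CuAAC. After m7G depletion it was 24803, 33703 and 28661 CPM in SPAAC and 36460, 38303 and 38589 CPM in CuAAC. The captured mock libraries were all below the mRNA-seq libraries, and the m7G-depleted libraries of each chemistry were all above their mock libraries. Per kb of transcript, CAB1 ranked 3 of the 21456 genes in mock mRNA and 1 in each captured group.

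CAB2 was far lower in every captured library than in mRNA-seq. It stood at 8607, 8896 and 9523 CPM in mock mRNA, at 1223, 1513 and 1188 CPM in mock SPAAC and at 1531, 1800 and 1651 CPM in mock CuAAC. The m7G-depleted SPAAC libraries gave 1401, 1511 and 1258 CPM and the m7G-depleted CuAAC libraries 2022, 2324 and 2042 CPM. No captured library came near the mRNA-seq range.

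CAB3 followed CAB2. Its mean was 8598 ± 1260 CPM in mock mRNA, 1453 ± 219 in mock SPAAC and 1942 ± 340 in mock CuAAC (SD, n = 3 each). After depletion it was 1511 ± 310 CPM in SPAAC and 2209 ± 329 in CuAAC. LHB1B2 was the second gene of the family per kb in mRNA-seq. It stood at 19813, 17802 and 23284 CPM there, and its captured libraries lay between 3610 and 6246 CPM with no overlap. LHB1B1, its neighbour on the other strand, was 6483 ± 1063 CPM in mock mRNA, 4691 ± 1095 in mock SPAAC and 6213 ± 1110 in mock CuAAC, and those 3 groups overlapped.

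The LHCB2 genes encode the other major LHCII protein. LHCB2.1 was at 3276 ± 312 CPM in mock mRNA, 2831 ± 466 in mock SPAAC and 3884 ± 382 in mock CuAAC, and the depleted groups were at 1452 ± 242 in SPAAC and 2241 ± 268 in CuAAC. Its highest depleted library, at 2508 CPM, was just below its lowest mock library, at 2525 CPM. LHCB2.2 gave 2106, 2580 and 2740 CPM in mock mRNA, 1187, 1640 and 1160 in mock SPAAC and 1589, 1977 and 1985 in mock CuAAC. After depletion it gave 408, 573 and 497 CPM in SPAAC and 655, 862 and 812 in CuAAC, below every mock library. LHCB2.3 was the lowest gene of the family per kb in every group. It gave 448, 627 and 645 CPM in mock mRNA, 734, 1141 and 904 in mock SPAAC and 793, 1122 and 1147 in mock CuAAC. Its depleted libraries gave 216, 363 and 333 CPM in SPAAC and 301, 424 and 417 in CuAAC, also below every mock library.

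**Figure D1:**
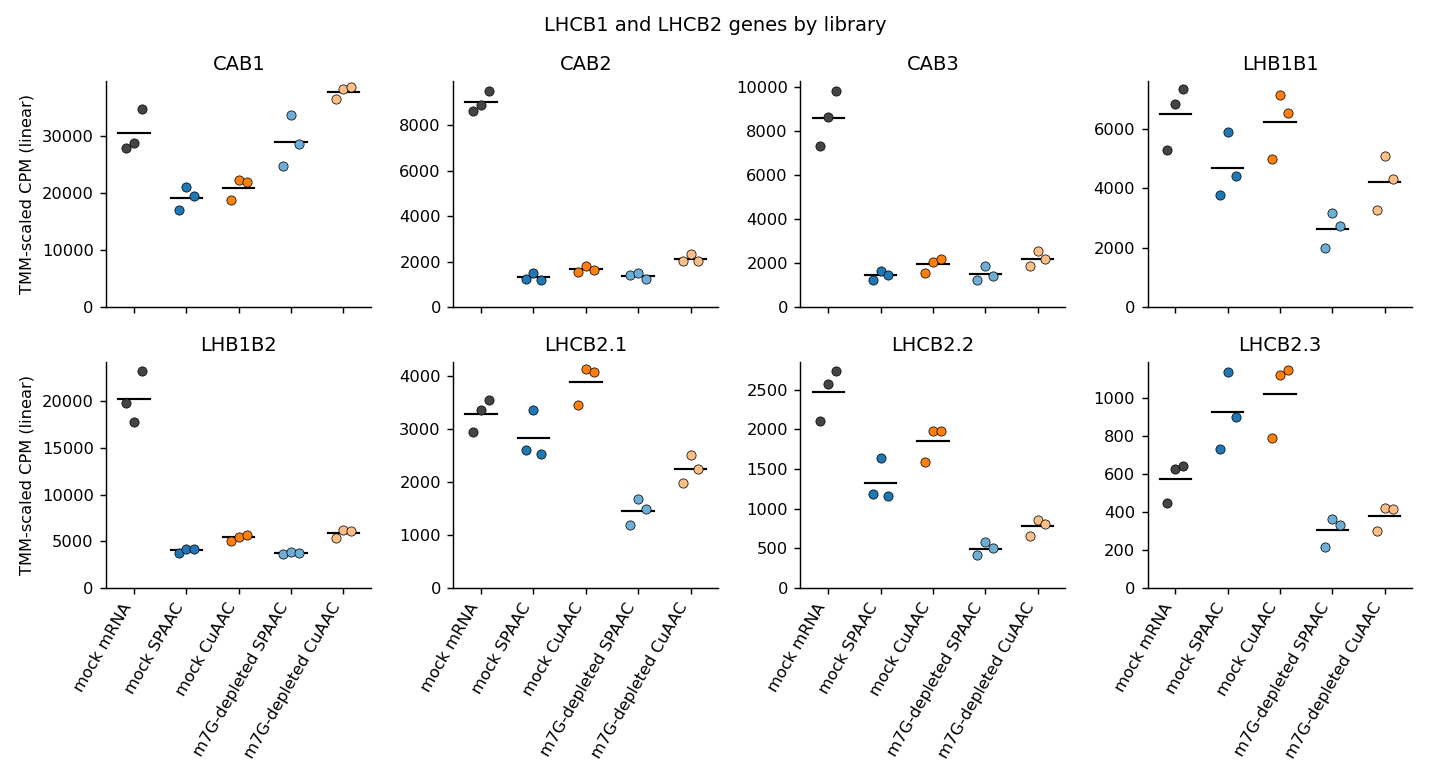
TMM-scaled CPM (linear axis from 0) of each gene in the 15 libraries, with a point for each library and a bar at the group mean of 3. CAB2, CAB3 and LHB1B2 stand low in all captured groups, CAB1 is highest in m7G-depleted CuAAC (37784 ± 1155 CPM), and the m7G-depleted libraries of LHCB2.1, LHCB2.2 and LHCB2.3 lie below every mock library.

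The order of the genes changed with capture. Per kb, the order in mock mRNA was CAB1, LHB1B2, CAB3, CAB2, LHB1B1, LHCB2.1, LHCB2.2 and LHCB2.3. CAB3 and CAB2 overlapped in that order, as did LHCB2.1 and LHCB2.2. In mock SPAAC the order was CAB1, LHB1B2, LHB1B1, LHCB2.1, CAB3, LHCB2.2, CAB2 and LHCB2.3. LHB1B2 overlapped with LHB1B1 there, CAB3 with LHCB2.2, and LHCB2.2 with CAB2. CAB1 was 15637 ± 1617 CPM per kb in mock SPAAC, and LHB1B2, the next gene, was 3872 ± 229. In mock mRNA the same genes were at 24812 ± 2985 and 19425 ± 2654 CPM per kb. CAB1 stayed first and LHCB2.3 last in all 5 groups.

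The first comparison asks which of these transcripts are more or less abundant among captured RNA than in mRNA-seq of the same mock-treated RNA. CAB2, CAB3 and LHB1B2 fell in both captures, and no gene of the family was called higher. A gene was called when its adjusted p from edgeR's quasi-likelihood test, over all 21456 genes, was under 0.05 and its fold change at least 2. In mock SPAAC, 3 of 8 genes were called lower and 0 higher, where 5.17% of all genes were called lower and 1.89% higher. In mock CuAAC the counts were again 3 lower and 0 higher, against 11.2% and 5.09% of all genes. Both captures share the mock mRNA libraries, so their values are not independent. The amount of RNA also differed between capture and mRNA-seq. After 10 µg of mRNA into the depletion step, 3 µg went into the click reaction and 150 ng into mRNA-seq. The part of this difference in the values was not tested.

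In mock SPAAC against mock mRNA the log2 fold change was -2.78 ± 0.11 for CAB2 (SE; edgeR adjusted p = 3.51e-14), -2.57 ± 0.19 for CAB3 (2.78e-07) and -2.33 ± 0.10 for LHB1B2 (1.29e-13). In mock CuAAC it was -2.44 ± 0.10, -2.15 ± 0.19 and -1.91 ± 0.10 for the same genes, with edgeR adjusted p of 2.12e-13, 6.84e-07 and 2.02e-12. CAB1 was lower by less than the fold limit, at -0.67 ± 0.11 in SPAAC (edgeR adjusted p = 7.38e-05) and -0.54 ± 0.11 in CuAAC (0.000371), and turned to 0.05 and 0.06 when library totals replaced TMM. LHB1B1 gave -0.47 ± 0.24 (edgeR adjusted p = 0.163) and -0.06 ± 0.24 (0.858), and these values also turn positive with library totals, at 0.24 and 0.53. With the replicate number as a block, LHB1B1 in SPAAC was -0.48 ± 0.06 with an edgeR adjusted p of 2.64e-09, and it was lower in 3 of 3 numbered pairs. The 3 genes of the CAB cluster, which sit within 6835 nt, thus had log2 fold changes in SPAAC from -2.78 to -0.67.

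The LHCB2 genes did not pass the call in either capture. LHCB2.1 gave -0.21 ± 0.13 in SPAAC (edgeR adjusted p = 0.257) and 0.25 ± 0.13 in CuAAC (0.151), and 0.50 and 0.84 with library totals. LHCB2.2 gave -0.90 ± 0.17 in SPAAC (edgeR adjusted p = 0.00076) and -0.42 ± 0.16 in CuAAC (0.0512), the second of which becomes 0.18 with library totals. It was called lower in SPAAC when mock mRNA 1 (-1.01) or mock SPAAC 2 (-1.08) was left out. Overlap between libraries was not counted over all genes. LHCB2.3 was the only gene of the family above its mRNA-seq libraries in both captures without overlap, at 0.69 ± 0.25 (edgeR adjusted p = 0.0538) and 0.83 ± 0.25 (0.0177). It was called higher with library totals in both (1.40 and 1.43) and in CuAAC without mock CuAAC 1 (1.02). With the replicate block, edgeR adjusted p was 0.00448 for LHCB2.1 and 4.62e-19 for LHCB2.3 in SPAAC, and 0.00118 for LHCB2.1 and 0.000647 for LHCB2.2 in CuAAC, with log2 fold changes of -0.22 ± 0.06, 0.69 ± 0.05, 0.24 ± 0.06 and -0.42 ± 0.08, all short of the fold limit. Beside it, the counts of the overlapping AT3G27700 were 31.2% to 35.0% of those of LHCB2.3 in mock mRNA, 33.7% to 42.1% in SPAAC and 10.5% to 10.8% in CuAAC, and their part in the LHCB2.3 counts was not tested.

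The scaling matters for levels set against mRNA-seq because the libraries differ in composition. Nuclear genes other than rRNA held 60.8% to 68.5% of the counts in mock mRNA and 93.7% to 99.4% in the captured groups. When library totals replaced TMM, the median of all genes' log2 fold changes moved from 0.07 to 0.80 in SPAAC and from 0.01 to 0.62 in CuAAC. Relative to that median, CAB2 stood at -2.86 with TMM and -2.87 with library totals in SPAAC, and CAB1 at -0.74 and -0.75. A change of scaling shifts all genes by nearly the same amount, so this likeness is built in and does not test the scaling. With totals of nuclear genes without rRNA the median was 0.14 in SPAAC and -0.03 in CuAAC, and every gene of the family kept its direction and call.

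Markers of tissues also differed between capture and mRNA-seq. Of 3 shoot markers, FBA2, a plastid fructose-bisphosphate aldolase, was called lower in SPAAC (-1.01 ± 0.09, edgeR adjusted p = 1.8e-08), and 0 were called in CuAAC. Of 3 root markers, CASP1, a protein of the Casparian strip, was called lower in SPAAC (-1.58 ± 0.22, edgeR adjusted p = 6.65e-06) and CuAAC (-1.13 ± 0.22, 0.000192), and the tonoplast aquaporin TIP2-3 was called higher in CuAAC (1.61 ± 0.25, 0.000162). The 3 shoot markers summed to 18101 to 19358 CPM in mock mRNA, 14589 to 16999 in mock SPAAC and 16727 to 18623 in mock CuAAC. The 3 root markers summed to 1235 to 1292, 1832 to 2066 and 1494 to 1677 CPM in the same groups. No epidermis or vasculature marker was called, and no marker was at 0. Their part in the family's values was not tested.

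Summed over the 8 genes, the level was 81242 ± 9149 CPM in mock mRNA, 35818 ± 4441 for SPAAC and 42953 ± 4582 for CuAAC on mock RNA. The log2 fold change of the summed counts was -1.18 ± 0.12 in SPAAC and -0.92 ± 0.11 in CuAAC, and with library totals -0.47 and -0.32. The 5 LHCB1 genes together changed by -1.29 ± 0.11 and -1.05 ± 0.11 on the log2 scale, and the 3 LHCB2 genes by -0.31 ± 0.15 and 0.10 ± 0.15. The LHCB2 sum is the value whose sign depends on the scaling in SPAAC, since library totals gave 0.39, and it was 0.69 in CuAAC. Sums do not depend on how reads were split between copies of the same sum. They would still change if shared reads were dropped or counted more than once. The LHCB1 sum also holds any reads of AT2G08665 counted at LHB1B2, and the LHCB2 sum any reads of AT3G27700 counted at LHCB2.3.

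**Figure D2:**
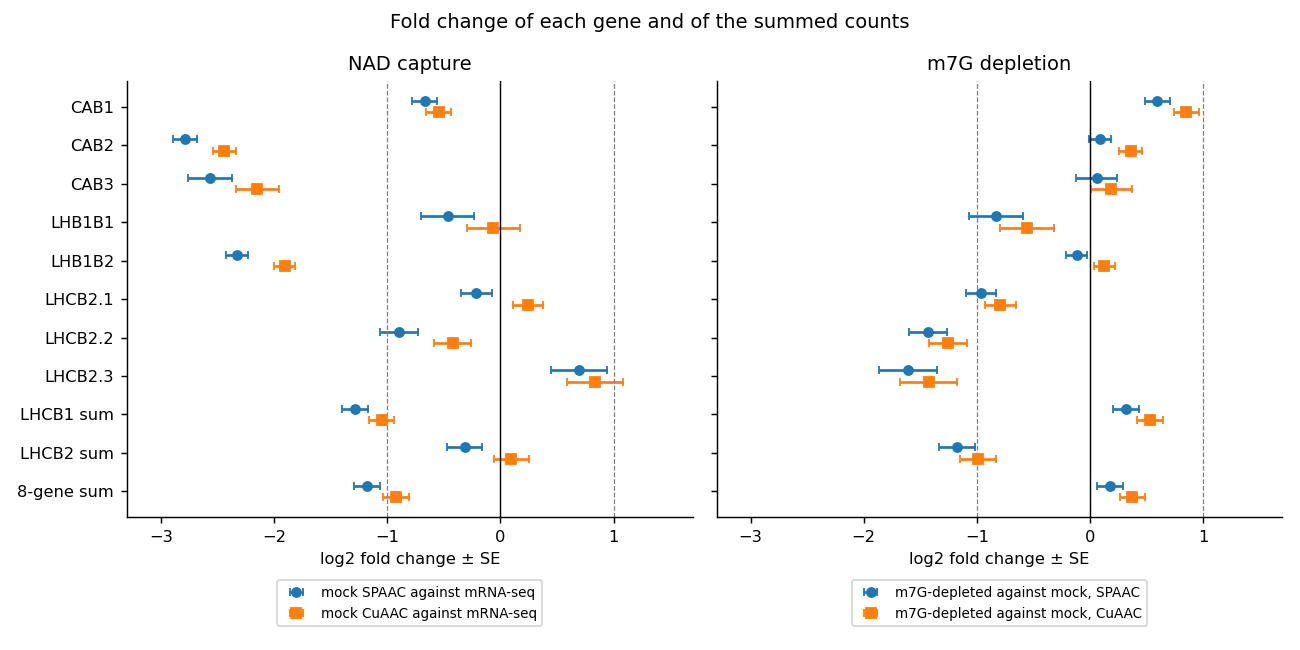
Log2 fold change ± SE of each gene and of the summed counts, with TMM scaling, for capture against mRNA-seq (left) and m7G-depleted against mock (right), with SPAAC as circles, CuAAC as squares and dashed lines at the fold limit of 2. CAB2, CAB3 and LHB1B2 lie at -1.91 or lower in both captures, and the LHCB2 genes lie lowest after depletion; the signs of CAB1 and LHB1B1 against mRNA-seq, of LHCB2.1 in SPAAC and of LHCB2.2 in CuAAC turn with library totals.

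The second comparison asks what removal of m7G-capped RNA does to the captured RNA. LHCB2.2 and LHCB2.3 fell in both chemistries, and no gene of the family was called higher. In SPAAC 2 of 8 genes were called lower and 0 higher, beside 9.66% and 7.37% of all genes. In CuAAC the counts were 2 lower and 0 higher, beside 8.24% and 6.32%.

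In SPAAC the log2 fold change of depleted against mock was -1.43 ± 0.17 for LHCB2.2 (edgeR adjusted p = 5.2e-06) and -1.61 ± 0.25 for LHCB2.3 (0.000219). In CuAAC it was -1.25 ± 0.17 (2.51e-05) and -1.42 ± 0.25 (0.000662) by the same test. LHCB2.1, at -0.96 ± 0.14 in SPAAC (edgeR adjusted p = 1.29e-05) and -0.79 ± 0.14 in CuAAC (0.000121), stayed under the fold limit. In SPAAC it passed the limit without mock SPAAC 1 (-1.02), mock SPAAC 3 (-1.04) or m7G-depleted SPAAC 2 (-1.08). The LHCB2 sum changed by -1.18 ± 0.16 in SPAAC and -0.99 ± 0.16 in CuAAC on the log2 scale. The overlapping AT3G27700 had mean levels of 340 CPM in mock and 152 CPM in depleted SPAAC, and of 109 and 63.6 CPM in CuAAC, and its part in the LHCB2.3 counts was not tested.

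The LHCB1 genes did not all share that direction. CAB1 was higher after depletion at 0.60 ± 0.11 in SPAAC (edgeR adjusted p = 0.00011) and 0.85 ± 0.11 in CuAAC (2.22e-06), under the fold limit in both. CAB2 gave 0.09 ± 0.10 (edgeR adjusted p = 0.472) and 0.36 ± 0.10 (0.00488). CAB3 gave 0.06 ± 0.18 (edgeR adjusted p = 0.813) and 0.19 ± 0.18 (0.428), and LHB1B2 -0.12 ± 0.09 (0.294) and 0.13 ± 0.09 (0.277). LHB1B1 was lower, at -0.83 ± 0.24 in SPAAC (edgeR adjusted p = 0.0113) and -0.56 ± 0.24 in CuAAC (0.0736), and was not called. With the replicate block, edgeR adjusted p was 2.24e-11 for LHB1B1 in CuAAC (-0.57 ± 0.06), and 0.0431 (-0.12 ± 0.05) and 0.0323 (0.13 ± 0.05) for LHB1B2 in SPAAC and CuAAC. The LHCB1 sum changed by 0.32 ± 0.11 and 0.53 ± 0.11, and the 8-gene sum by 0.18 ± 0.11 and 0.37 ± 0.11, on the log2 scale.

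Some calls in the depletion comparison also changed with the settings. With offsets that remove the trend of each library with gene length, CAB1 was called higher (1.06 in SPAAC and 1.24 in CuAAC) and LHCB2.2 was no longer called (-0.89 and -0.79). When the test itself was made against a fold of 2 (glmTreat), LHCB2.3 lost its call in SPAAC (edgeR adjusted p = 0.0728), and LHCB2.2 (0.347) and LHCB2.3 (0.288) lost theirs in CuAAC.

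Of the tissue markers, CASP1 was called lower after depletion in SPAAC (-1.51 ± 0.23, edgeR adjusted p = 1.27e-05) and CuAAC (-1.87 ± 0.27, 7.45e-06), and the other 8 were not called. In depleted SPAAC and CuAAC the 3 root markers summed to 1284 to 1397 and 1012 to 1170 CPM, and the 3 shoot markers to 15607 to 16437 and 19335 to 20670 CPM. Their part in the family's values was not tested.

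The depletion effect was not shown to differ between the chemistries. The difference of the effect, SPAAC minus CuAAC, lay between -0.27 and -0.13 on the log2 scale over the 8 genes, with SE of 0.13 to 0.35, and 0 genes were called by edgeR, with 0 at an unadjusted p under 0.05. Across all genes 0.00466% were called.

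No gene of the family passed the call between SPAAC and CuAAC. On mock RNA 0 of 8 genes were called, beside 6.98% of all genes called in either direction (1388 higher and 109 lower in SPAAC). For 8 genes, 0 called is close to that share. The log2 fold changes, SPAAC minus CuAAC, ran from -0.48 ± 0.16 (LHCB2.2, edgeR adjusted p = 0.0349) to -0.12 ± 0.11 (CAB1, 0.41). CAB2 (-0.34 ± 0.10, edgeR adjusted p = 0.00869), LHB1B2 (-0.42 ± 0.09, 0.0011) and LHCB2.1 (-0.46 ± 0.13, 0.0131) were, like LHCB2.2, lower in SPAAC at an adjusted p under 0.05. That makes 4 of 8 genes, beside 3250 of all 21456 genes lower by the same measure. With the replicate block, CAB3 (-0.42 ± 0.09, edgeR adjusted p = 0.00196), LHB1B1 (-0.41 ± 0.06, 5.96e-08) and LHCB2.3 (-0.14 ± 0.05, 0.0174) also passed 0.05 on mock RNA. After depletion 0 of 8 genes were called, beside 8.19% of all genes (1566 higher and 192 lower in SPAAC). At an edgeR adjusted p under 0.05 alone, 7 of 8 were lower in SPAAC, with changes from -0.68 to -0.38, short of the fold limit. By that measure 3706 of all 21456 genes were lower in SPAAC, and so were 12 of the 13 other antenna genes listed below. LHCB2.3 gave -0.32 ± 0.25 (edgeR adjusted p = 0.343), and -0.34 ± 0.05 (1.15e-07) with the block. None of the 9 tissue markers was called between chemistries. The 8-gene sum differed by -0.26 ± 0.11 on mock RNA and by -0.46 ± 0.11 after depletion. With offsets for gene length these became -0.01 and -0.13.

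Shares within the family do not depend on the scaling between libraries. CAB1 held 40.7 ± 0.239% of LHCB1 counts in mock mRNA, 62.7 ± 1.18% in SPAAC and 58.0 ± 0.746% in CuAAC on mock RNA (SD, n = 3). After m7G depletion it held 75.7 ± 0.763% in SPAAC and 72.4 ± 2.05% in CuAAC. Each step moved CAB1 up without overlap between libraries. The CAB2 share was 12.1 ± 0.728% in mock mRNA and 4.26 ± 0.354% and 4.60 ± 0.236% in mock SPAAC and CuAAC, then 3.66 ± 0.501% and 4.07 ± 0.218% after depletion. LHB1B2 went from 27.1 ± 1.84% in mock mRNA to 13.2 ± 0.895% in mock SPAAC and 9.84 ± 1.16% in m7G-depleted SPAAC. LHB1B1 held 8.64 ± 0.973% in mock mRNA, 15.1 ± 1.80% in mock SPAAC and 6.83 ± 0.672% in m7G-depleted SPAAC. Its share was thus above mRNA-seq in mock SPAAC and below it in m7G-depleted SPAAC. In CuAAC it held 17.1 ± 1.40% on mock RNA and 8.02 ± 1.34% after depletion, and the latter libraries overlapped those of mock mRNA.

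Among LHCB2 counts, LHCB2.1 held 51.9 ± 1.35% in mock mRNA, 55.8 ± 1.52% in mock SPAAC and 64.7 ± 0.881% in m7G-depleted SPAAC. LHCB2.2 held 39.1 ± 0.625%, 26.1 ± 0.713% and 21.9 ± 0.492% in the same groups. LHCB2.3 held 9.01 ± 0.746%, 18.2 ± 1.77% and 13.4 ± 1.33%. The LHCB2 share of the whole family was 7.79 ± 0.582% in mock mRNA, 14.2 ± 1.12% in SPAAC and 15.7 ± 0.247% in CuAAC on mock RNA, and 5.53 ± 0.284% and 6.09 ± 0.438% after depletion in SPAAC and CuAAC. It was thus above mRNA-seq in mock captures and below it after depletion. Of 54 exact two-sided permutation tests on shares, 43 reached the smallest p that 3 against 3 libraries allow (0.1), and the lowest Benjamini-Hochberg adjusted p was 0.126. In all 9 shares the libraries did not overlap in either comparison of mock capture with mRNA-seq.

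**Figure D3:**
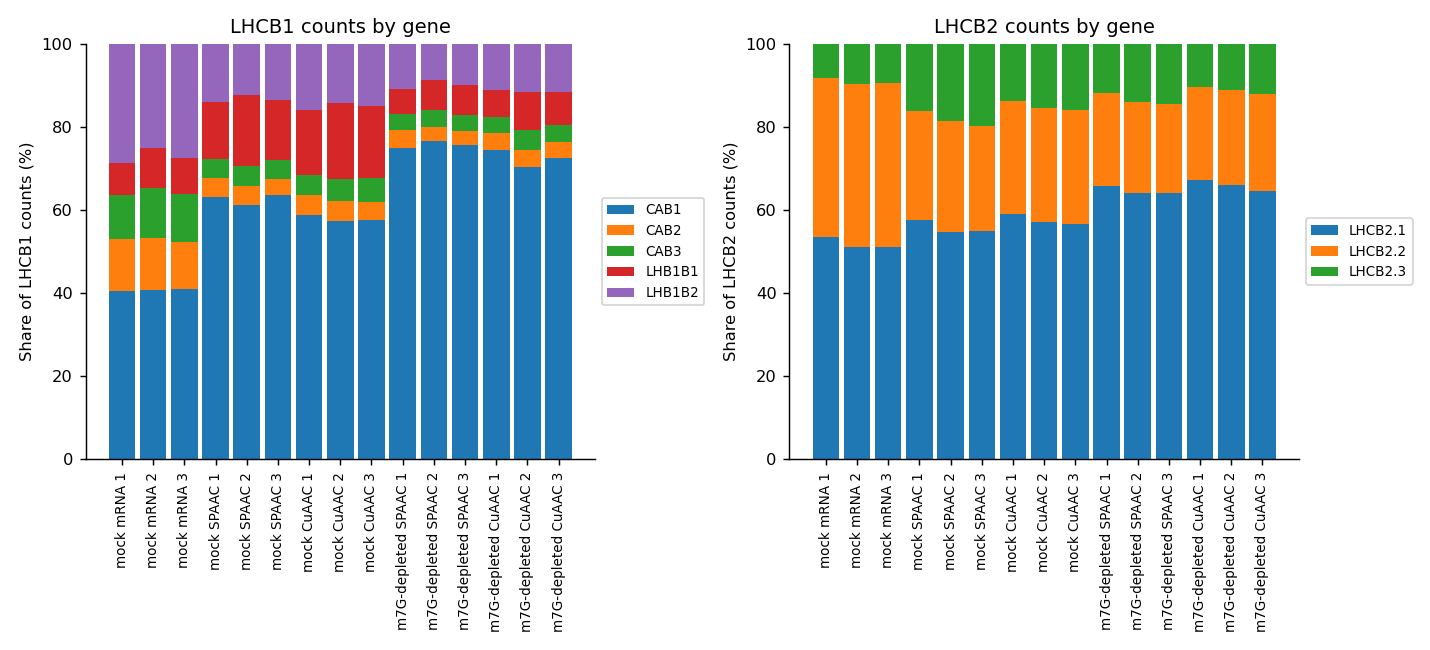
Share of LHCB1 counts (left, 5 genes) and of LHCB2 counts (right, 3 genes) held by each gene in the 15 libraries, in percent. CAB1 takes 40.7% of LHCB1 counts in mock mRNA and at least 70.3% in every m7G-depleted library, and LHCB2.2 shrinks from 39.1% of LHCB2 counts to 21.9% in m7G-depleted SPAAC.

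LHB1B2 has a further uncertainty. AT2G08665 is annotated on the opposite strand over its whole length of 1045 nt, and the counts of both were identical in 15 of 15 libraries, so the deposited counts do not separate strands here. All values for LHB1B2 are therefore values of the locus, and AT2G08665 has the same fold changes (-2.33 ± 0.10 in mock SPAAC against mRNA-seq). RWA3 (AT2G34410) overlaps LHB1B2 by 99 nt and its counts were at most 9.08% of those of LHB1B2. NRPA2, a subunit gene of RNA polymerase I, overlaps CAB1 by 108 nt with counts of at most 0.375% of those of CAB1.

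The other antenna genes were compared by a list of 13 (LHCB3 to LHCB7 and LHCA1 to LHCA6, in all their copies). Against mRNA-seq, 0 of 13 were called in SPAAC, where 1.89% of all genes were called higher and 5.17% lower, and 1 was called higher in CuAAC, where the shares were 5.09% and 11.2%. The median log2 fold change was 0.14 and 0.41, beside 0.07 and 0.01 over all genes. The called gene was LHCA5, a minor antenna protein of photosystem I, which rose by 1.25 ± 0.09 in CuAAC (edgeR adjusted p = 2.46e-10) and gave 0.90 ± 0.09 in SPAAC (5.72e-08). After m7G depletion 1 of 13 was called lower in each chemistry, close to the 9.66% (SPAAC) and 8.24% (CuAAC) of all genes. This was LHCB6, which encodes the minor photosystem II antenna protein CP24. It fell from 3184 ± 430 to 1223 ± 190 CPM in SPAAC (-1.38 ± 0.12, edgeR adjusted p = 2.02e-08) and from 4383 ± 464 to 1999 ± 238 CPM in CuAAC (-1.13 ± 0.12, 3.81e-07). The medians of the list there were -0.37 and -0.03. Between the chemistries 0 of 13 were called, beside 6.98% of all genes on mock RNA and 8.19% after depletion, with medians of -0.36 on mock RNA (LHCA4, -0.62 ± 0.10) and -0.61 after depletion (LHCA1, -0.75 ± 0.09).

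A list of 14 genes covered chlorophyll b metabolism, delivery of LHCII proteins to the thylakoid and the regulation of LHCII. Against mRNA-seq 0 of 14 were called in either capture, beside the shares of all genes just given, with medians of 0.37 in SPAAC and 0.32 in CuAAC. STN7, the LHCII kinase, gave 0.61 ± 0.08 in SPAAC (edgeR adjusted p = 3.12e-06), and PSBS, a protein of non-photochemical quenching, 0.96 ± 0.09 in CuAAC (2.52e-08). After depletion 1 of 14 was called lower in both chemistries, near the 9.66% and 8.24% of all genes. This was cpSRP43 (AT2G47450), part of the chloroplast signal recognition particle that carries LHC proteins to the thylakoid, which fell from 513 ± 52.0 to 206 ± 17.3 CPM in SPAAC (-1.32 ± 0.10, edgeR adjusted p = 5.9e-10) and from 411 ± 31.4 to 192 ± 16.1 CPM in CuAAC (-1.09 ± 0.10, 1.32e-08). Medians of the list were 0.03 and 0.11. Between chemistries 0 of 14 were called, beside 6.98% and 8.19% of all genes, with cpSRP54 at 0.47 ± 0.08 on mock RNA and LTD, another factor in LHC protein delivery, at -0.68 ± 0.10 after depletion.

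**Figure D4:**
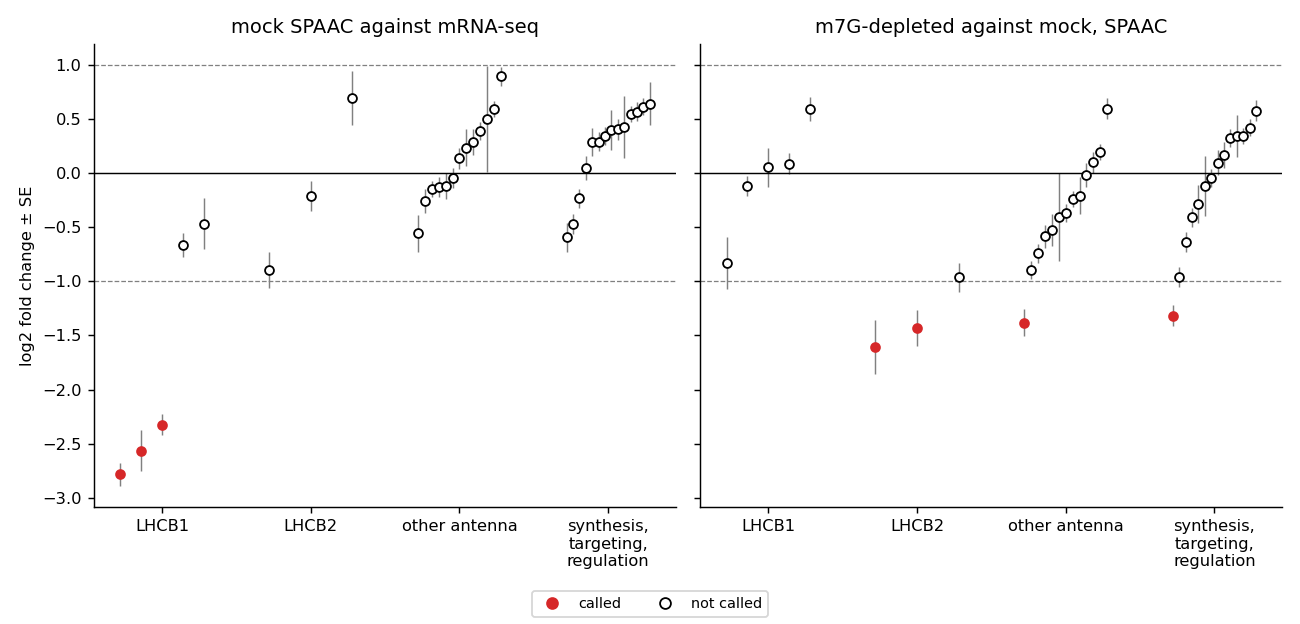
Log2 fold change ± SE of the LHCB1 genes, the LHCB2 genes, 13 other antenna genes and 14 genes of LHCII synthesis, targeting and regulation, for mock SPAAC against mRNA-seq (left) and m7G-depleted against mock SPAAC (right), with called genes in red and dashed lines at the fold limit of 2. The 3 called genes on the left are LHCB1 genes, and the 4 on the right are LHCB2.2, LHCB2.3, LHCB6 and cpSRP43.

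The genes whose pattern over the 15 libraries was most like that of the family were found by Pearson correlation of log2(CPM + 1) among 10908 genes with a mean of at least 10 CPM. The libraries fall into 5 groups, so this is a description. For the LHCB1 sum these were CaS (r = 0.966), a thylakoid calcium-sensing protein, AT3G41762 (0.964) and AT5G60390 (0.960). For the LHCB2 sum they were PLAT2 (0.992), RPL12-C (0.985), of the plastid ribosome, and LHCB6 (0.984). For CAB2 they were AT5G20290 (0.996), AAC1 (0.995), a mitochondrial ADP/ATP carrier, and RPL5B (0.984), of the cytosolic ribosome.

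Replicate number moved with the levels. Replicate 1 was the lowest library of its group in 5 of 5 groups for CAB1, CAB3, LHB1B1, LHCB2.3 and the 8-gene sum, in 4 of 5 for LHB1B2, LHCB2.1 and LHCB2.2, and in 3 of 5 for CAB2. This was not counted over all genes. Same-numbered libraries deviated together across 10917 genes in 30 of 30 pairs, so replicate number is not a matter of this family alone. A fit with the replicate number as a block changed no call of the family, but edgeR adjusted p moved from above to below 0.05 in 12 of 48 fold changes, each under the fold limit, as given above.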

How the data were processed

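For each of 15 libraries the authors deposited a table of unnormalized counts, whole numbers over 37361 genes, beside a gene length, per the file headers. DESeq2, featureCounts 2.0.0 and STAR 2.7.3a are listed in the submitters' processing notes with no role for each. No source used here gives the build. Of the identifiers, 37065 (99.2%) matched RefSeq TAIR10.1, and all 8 genes of the family had the annotated length, so coordinates and sequences come from that build. Library totals ran from 3806556 to 19798778 counts. Replicates of a group differed by more than sampling noise (chi-square per degree of freedom 3.83 to 15.7 over 15 pairs).

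Counts were fitted with edgeR 4.0.16 in R 4.3.3 (quasi-likelihood F test, robust, TMM, filterByExpr) in a joint fit of all libraries by group, with Benjamini-Hochberg adjustment over 21456 genes and a common biological coefficient of variation of 12.3%. Summed counts took the place of their members in the same fit and have no p. The m7G-depleted captures differ from mock mRNA in more than a single step and were set side by side as levels only. Alternatives were DESeq2 1.42.0 (size factors and Wald test), library totals, totals of nuclear genes without rRNA, no filter, a replicate block, length offsets, glmTreat, the compared groups alone and leaving out each library. Identity and start sequences were computed with Biopython 1.88. Before use, the fit was tested on simulated data.

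The labels do not say that replicates came from separate plants, and the spread behind the p-values may therefore be technical. Same-numbered libraries deviated together from their group means in 30 of 30 pairs (r from 0.183 to 0.747 over 10917 genes), so the numbers pair the samples. Named genes of the lists are up to 2 called genes with the largest change at a mean of at least 10 CPM or, with none called, the gene with the smallest adjusted p. The genes of the family, the lists and the tests were chosen with earlier results of these data known.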

Additional observations from a re-analysis of the deposited data

How the results depend on the processing

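With DESeq2 size factors, totals of nuclear genes without rRNA, no filter, the DESeq2 Wald test, the compared groups alone or the replicate block, every gene of the family kept its direction and its call in all comparisons. The block moved edgeR adjusted p below 0.05 in 12 of 48 fold changes that stayed under the fold limit. With the replicate block 3, 3, 2 and 2 genes were called lower in the capture and depletion comparisons (SPAAC, then CuAAC, in each), as without it. Of all 21456 genes the block called 1157, 2480, 2203 and 1920 lower and 501, 1201, 1618 and 1411 higher in the same order. The 8-gene sum changed by -1.19 in mock SPAAC and -0.92 in mock CuAAC against mRNA-seq with the block. Across all genes the block called 4 genes for the difference in depletion effect between chemistries, against 1.

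With library totals, the 8-gene sum changed by -0.47 in SPAAC and -0.32 in CuAAC against mRNA-seq, and CAB1 (0.050 and 0.060), LHB1B1 (0.24 and 0.53), LHCB2.1 in SPAAC (0.50) and LHCB2.2 in CuAAC (0.18) turned positive without being called. All-gene calls became 7254 (6898 higher and 356 lower) in SPAAC and 6608 (5596 higher and 1012 lower) in CuAAC. With length offsets the 8-gene sum was -1.17 for CuAAC against mRNA-seq, -0.0066 for mock SPAAC against CuAAC, 0.61 and 0.73 for depletion in SPAAC and CuAAC, and -0.13 for depleted SPAAC against depleted CuAAC. CAB1 (0.15) and LHCB2.3 (0.035) turned positive in mock SPAAC against CuAAC, as did LHB1B2 for depletion in SPAAC (0.51). In SPAAC depletion the offsets still left 2 called genes, but these were CAB1 and LHCB2.3. All-gene calls with the offsets were 913 and 969 between chemistries and 1593 and 1494 for depletion. With glmTreat 1 gene of the family was called for depletion in SPAAC and 0 in CuAAC, and all-gene calls were 447 and 1228 against mRNA-seq, 391 and 404 between chemistries and 1034 and 641 for depletion. The causes were not tested.

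Leaving out each library gave ranges across 0 for LHB1B1 in CuAAC against mRNA-seq (-0.16 to 0.11), LHCB2.3 in mock SPAAC against CuAAC (-0.34 to 0.0024), CAB3 for depletion in SPAAC (-0.12 to 0.18), and, for the difference in depletion effect, CAB3 (-0.30 to 0.0081), LHCB2.2 (-0.30 to 0.0006) and LHCB2.3 (-0.33 to 0.013).

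Divided by gene length, shares (mRNA-seq first, then mock SPAAC, mock CuAAC, depleted SPAAC and depleted CuAAC) were 30.8%, 15.4%, 17.5%, 11.5% and 13.1% for LHB1B2, 47.8%, 53.0%, 54.5%, 61.9% and 63.0% for LHCB2.1 and 44.3%, 30.5%, 31.9%, 25.8% and 26.8% for LHCB2.2. CAB1 became 39.3% in mock mRNA, 57.2% in mock CuAAC and 74.9% in m7G-depleted SPAAC. CAB2 became 10.9% in mock mRNA, 4.25% in mock CuAAC and 3.77% in m7G-depleted CuAAC. LHCB2.3 became 7.96% in mock mRNA, 13.6% in mock CuAAC and 10.2% in m7G-depleted CuAAC. The LHCB2 share of the family became 7.20% in mock mRNA, 14.5% in mock CuAAC, and 5.02% and 5.54% in depleted SPAAC and CuAAC. Depth limits none of the family's levels, as its lowest gene had a mean of 304 CPM in any group, and the number of libraries limits the share tests.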
